A study of Mus musculus with 2 samples.

Results

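The BCL2 family is described here through 10 genes: the anti-apoptotic Bcl2, Bcl2l1, Mcl1 and Bcl2a1b, the pore-forming Bax and Bak1, and the BH3-only Bcl2l11, Bid, Pmaip1 and Bbc3. They were taken by name, not by their values, from the 31053 genes of the deposited matrices, and all 10 were measured. The data are 2 single-cell libraries of cells with high surface CD45, sorted from brain tumours of C57BL/6 mice into whose brains GL261 glioma cells (an established mouse line) had been injected 20 days earlier. The mice of 1 library drank control water (DW) and those of the other drank water with metformin, so both groups carried the same tumour. How many mice each library holds, the dose of metformin and the sort gates are not stated in the labels. With 1 library per group, treatment and library cannot be told apart, no test between groups exists, and every interval below is a 95% interval for counting error only.

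BCL2 family proteins decide whether the outer mitochondrial membrane stays intact. BAX and BAK1 form pores that release cytochrome c, the anti-apoptotic proteins hold them and the BH3-only proteins in check, and the BH3-only proteins either neutralise the anti-apoptotic proteins or activate BAX and BAK1. Lymphocytes are known to depend on BCL2 downstream of IL-7 and IL-15, many leukocytes depend on the short-lived MCL1, and BCL2A1 (A1) is induced by NF-kB in activated cells.

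After filtering, 5373 control and 4569 metformin cells with 46751843 and 44088764 unique molecular identifiers (UMIs, each a counted transcript) were clustered again, because the cell classes below are rebuilt and are named only as like a type. The 2 libraries shared 9 barcodes, of which 8 were retained. A class was compared between libraries where it held at least 50 cells in each, which left 11 classes: B-like, CD4 T-like, regulatory T-like, CD8 T-like, cycling T-like, naive T-like, Klra1/Klra6 T-like (T cells with the Ly49 receptor genes Klra1 and Klra6), NK-like, microglia-like, macrophage-like and conventional dendritic-like. Another 6 classes are described with fewer cells: gamma-delta T-like (59 control and 46 metformin cells), mature dendritic-like (43 and 70), non-classical monocyte-like (86 and 45), plasmacytoid dendritic-like (21 and 35), neutrophil-like (45 and 6) and basophil or mast-like (33 and 17). Levels are UMIs per 1000000 UMIs of a class (CPM), and 3′ UMIs are compared for 1 gene between classes, not between genes. A gene was called between libraries with at least 20 UMIs in both together, a ratio of metformin to control 25% or more above 1, or below 1 by the same factor, and an interval that did not include 1. No p-value follows from this rule.

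Single members of the family differed between lineages. In 3124 control and 2605 metformin lymphoid cells against 1997 and 1710 myeloid cells, Bcl2 was far higher in lymphoid cells, and Mcl1 and Pmaip1 were higher in myeloid cells. Under the rule of a 2-fold difference in the same direction in both libraries, these 3 of the 10 members were called, while 34.7% of all 13254 genes tested were called. The family was thus called no more often than genes in general. Bcl2 stood at 284.7 CPM in lymphoid and 25.96 CPM in myeloid cells of the control library (ratio 10.97, interval 9.99 to 12.1). In the metformin library the levels were 251.8 and 28.43 CPM (ratio 8.86, interval 8.10 to 9.71). Mcl1 stood at 264.3 and 597.9 CPM in control (ratio 0.442) and at 238.6 and 628.6 CPM in metformin (ratio 0.380). Pmaip1, which encodes NOXA, the BH3-only partner of MCL1, had ratios of 0.332 and 0.256. The gene pair of MCL1 and its partner was thus on the myeloid side in both libraries. With mitochondrial, ribosomal and haemoglobin genes left out of the scaling, Mcl1 no longer passed the 2-fold rule (0.554 and 0.466).

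The other 7 members did not pass that rule. Bcl2a1b (0.505 and 0.417), Bcl2l1 (0.514 and 0.643), Bbc3 (0.452 and 0.552) and Bid (0.551 and 0.747) were on the myeloid side in both libraries. Bak1 was too, at 0.746 (interval 0.681 to 0.817) and 0.810 (0.740 to 0.886). Bax had 0.985 (0.932 to 1.04) and 0.864 (0.819 to 0.911), and Bcl2l11 was on the lymphoid side at 1.26 and 1.36. These are sums over cells, in which large classes weigh most. With the median of the class values in place of the sums, Bcl2l11 turned to the myeloid side (0.747 and 0.886), Bak1 had 0.455 and 0.578, Bcl2a1b passed the 2-fold rule (0.353 and 0.440), and Bcl2 stayed on the lymphoid side at 7.82 and 5.78. Bax turned to 1.23 and 1.06 with mitochondrial, ribosomal and haemoglobin genes left out of the scaling.

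**Figure D1:**
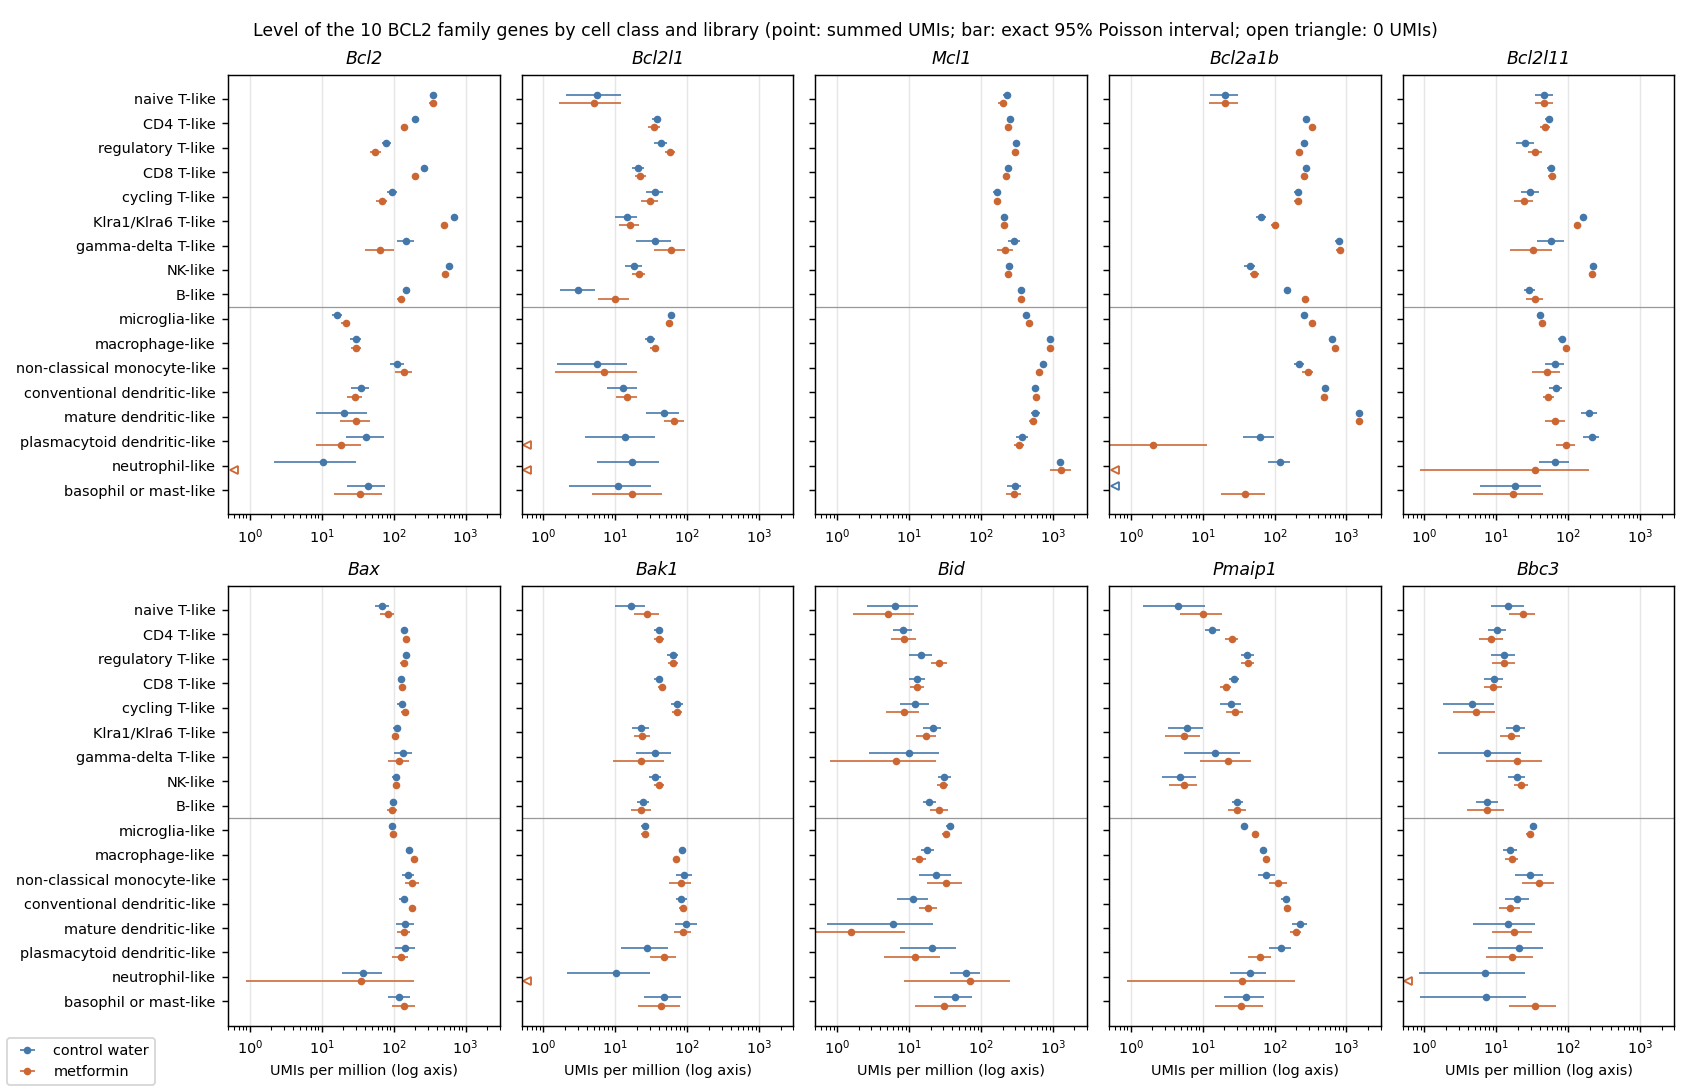
Level of each of the 10 genes (x axis, CPM, log axis) in 17 cell classes (y axis; lymphoid above the line, myeloid below) for the control water and metformin libraries. Points are summed UMIs of a class, bars exact 95% Poisson intervals and open triangles 0 UMIs. Bcl2 falls from Klra1/Klra6 T-like and NK-like cells to microglia-like cells, Mcl1 and Pmaip1 lie further right in most myeloid classes, and Bax spans a narrow range.

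Bcl2 (chromosome 1, 106538178 to 106714274, minus strand, mm10), the founding anti-apoptotic gene, varied widely across lymphocytes. It was highest in Klra1/Klra6 T-like cells, at 694.6 CPM in control and 504.6 CPM in metformin, and in NK-like cells, at 592.0 and 513.7 CPM. In the control library these intervals did not overlap (660.8 to 729.6 against 565.2 to 619.7), while in the metformin library they did (477.3 to 533.1 against 491.7 to 536.4). Naive T-like cells (353.4 and 348.5 CPM), CD8 T-like cells (264.3 and 198.8), CD4 T-like cells (197.8 and 138.5) and B-like cells (146.4 and 126.9) followed in that order in both libraries. Cycling T-like cells had 95.84 and 68.89 CPM and regulatory T-like cells 79.55 and 55.83 CPM, the latter the lowest lymphoid level in both libraries. Among myeloid classes, non-classical monocyte-like cells stood apart at 111.0 and 138.5 CPM, neutrophil-like cells had 3 and 0 UMIs, and the other 6 classes ranged from 16.4 to 43.6 CPM in control and from 18.5 to 34.6 CPM in metformin. Microglia-like cells had 16.41 and 21.54 CPM.

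The share of cells with a Bcl2 UMI was also far higher in Klra1/Klra6 T-like than in microglia-like cells at equal depth. With every cell thinned to 3584 UMIs, 84.2% of 247 control and 74.7% of 281 metformin Klra1/Klra6 T-like cells had one, leaving out 18 and 6 shallower cells (unthinned 93.6% and 90.9%, median depth 8099 and 8279 UMIs). In microglia-like cells the thinned share was 4.53% of 1170 and 5.57% of 898 cells (unthinned 9.42% and 11.6%, median depth 7029.5 and 7546). No class is known to lack Bcl2 outright, so the microglia-like share is the lowest well-populated reference rather than a true blank. Bcl2 was also among the 10 leading genes of the larger Klra1/Klra6 T-like cluster, although none of the 10 members was used to build the clusters.

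Between the libraries, Bcl2 was lower with metformin in 5 of the 11 compared classes and higher in 1. The ratio was 0.70 in CD4 T-like cells (interval 0.626 to 0.783, 1013 control and 453 metformin UMIs), 0.702 in regulatory T-like cells (0.554 to 0.887) and 0.719 in cycling T-like cells (0.564 to 0.916). It was 0.727 in Klra1/Klra6 T-like cells (0.674 to 0.783, 1590 and 1273 UMIs) and 0.752 in CD8 T-like cells (0.695 to 0.813). NK-like cells had 0.868 (0.814 to 0.925), an interval below 1 that fell short of the fold. Naive T-like cells had 0.986 (0.8497 to 1.14), so a decrease of the size seen in CD4 T-like cells lay outside the counting error there. B-like cells had 0.867 (0.741 to 1.01). Microglia-like cells went the other way, at 1.31 (1.06 to 1.64) on 162 and 177 UMIs. There the 7 macrophage markers summed to 5407 and 9285 CPM and the 7 microglia markers to 20130 and 17920 CPM, and macrophage-like cells had more Bcl2 (29.6 and 30.2 CPM) than microglia-like cells. The same rule called 8.71% of genes in CD4 T-like, 8.54% in regulatory T-like, 12.4% in cycling T-like, 7.14% in Klra1/Klra6 T-like, 8.83% in CD8 T-like and 8.55% in microglia-like cells.

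**Figure D2:**
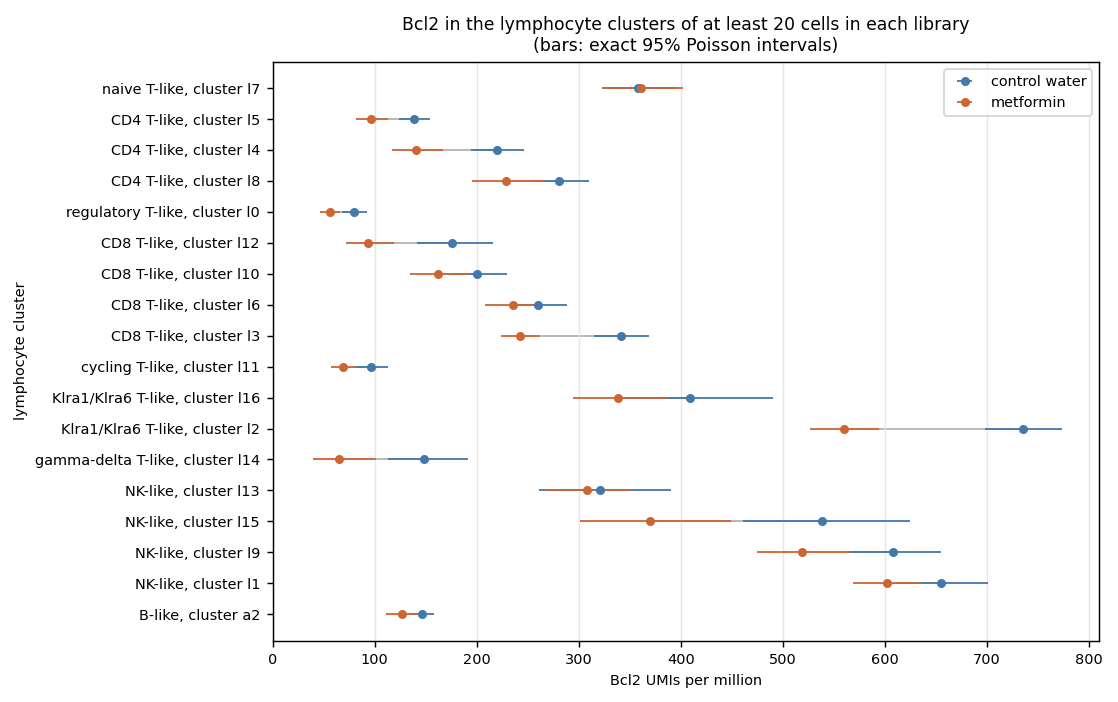
Bcl2 level (x axis, CPM) in each lymphocyte cluster with at least 20 cells in both libraries (y axis), with exact 95% Poisson intervals as bars and control water and metformin as colours. The metformin point lies to the left of the control point in every cluster shown except naive T-like cluster l7, with 358.3 and 360.9 CPM.

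Lower Bcl2 was also seen within single clusters of these classes. Klra1/Klra6 T-like cells consisted of cluster l2 (234 control and 221 metformin cells) and the Vps37b-led l16 (31 and 66 cells). Their mix thus differed between libraries, and its part in the values of that class was not tested. All 3 CD4 T-like clusters had ratios below 1, at 0.640 in the Tcf7-led cluster l4, 0.696 in the Ccl1-led l5 and 0.815 in l8. The 4 larger CD8 T-like clusters had 0.529 in l12 (led by Gramd3 and Nr4a2), 0.711 in the granzyme-rich l3, 0.808 in l10 and 0.904 in the Gzmk- and Tcf7-bearing l6, the last with an interval of 0.771 to 1.06. In NK-like clusters the ratio ran from 0.687 in l15 to 0.960 in l13. Gamma-delta T-like cells, led by Trdc and Il17a, had 59 control and 20 metformin UMIs, or 148.6 and 65.44 CPM (0.440, interval 0.251 to 0.742), with 13.6% and 20.0% of the UMIs in 1 cell. They were not counted, having 46 metformin cells.

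Under other settings the CD4 T-like, regulatory T-like, Klra1/Klra6 T-like and microglia-like Bcl2 calls stood in all 9 alternatives to the cell filter, clustering, scaling and weighting. Equal weighting of cells was judged by the fold alone, and the microglia-like interval began at 1.001 without the richest cell. The CD8 T-like call ended, at 0.824 and 0.817, under separate clustering of the libraries and with every cell weighted alike, and the cycling T-like call ended in 4 of the 9, among them at 0.777 (0.599 to 1.01) without the richest cell, which held 16.9% of the control UMIs. Other markers moved beside these values. In CD4 T-like cells the 7 microglia markers summed to 139.0 CPM in control and 212.5 in metformin (3 of 7 higher, none at 0) and the 7 macrophage markers to 48.61 and 78.28 CPM (3 of 7 higher, 1 and 2 at 0). In CD8 T-like cells the macrophage markers summed to 52.21 and 81.5 CPM (3 of 7 higher, 1 and 2 at 0). In Klra1/Klra6 T-like cells 15 genes known to respond to tissue handling, such as Fos and Jun, summed to 3221 and 4487 CPM (13 of 15 higher), and the 3 CD8 T markers to 640.4 and 488.7 CPM (0 of 3 higher). In cycling T-like cells the 3 CD8 T markers summed to 1485 and 2008 CPM (2 of 3 higher) and the 5 regulatory T markers to 1670 and 1299 CPM (2 of 5 higher). The part of these markers in the Bcl2 values was not tested.

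Mcl1 (chromosome 3, 95658788 to 95663176, plus strand), the anti-apoptotic gene with a short-lived product, was the steadiest member between libraries. None of the 11 classes was called, and the ratios ran from 0.883 in naive T-like cells to 1.11 in microglia-like cells, with a median of 0.974. Across classes it was highest in neutrophil-like cells (1270 and 1288 CPM, 367 and 37 UMIs) and macrophage-like cells (922.0 and 909.6 CPM). Non-classical monocyte-like cells had 729.5 and 653.1 CPM, conventional dendritic-like cells 564.5 and 582.8 CPM, mature dendritic-like cells 567.9 and 523.4 CPM and microglia-like cells 426.5 and 472.8 CPM. The lymphoid classes lay lower than these, from 366.7 and 357.1 CPM in B-like cells to 166.4 and 167.8 CPM in cycling T-like cells. Basophil or mast-like cells (81 and 66 UMIs) lay within this lymphoid range in both libraries. Plasmacytoid dendritic-like cells (108 and 167 UMIs) did so in the metformin library. In the macrophage-like class, where the rule called 12.5% of all genes, Mcl1 had 0.987 (0.948 to 1.03) and no member of the family was called.

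Mcl1 also differed between clusters of the myeloid cells. Microglia-like cluster a10, led by Nfkbia, Tnf and Cd83, had 950.0 and 980.2 CPM, against 325.3 and 371.2 CPM in the P2ry12-led cluster a0 and 378.4 and 415.4 CPM in the C4b-led cluster a6. An unnamed cluster, a15, led by Il1a, Ccl3 and Hmox1, reached 1937 and 1878 CPM in 87 and 62 cells, the highest Mcl1 level of any cluster with at least 20 cells in each library. In each of these 4 clusters the ratio between libraries lay between 0.970 and 1.14. Nfkbia, Egr1 and Zfp36, among the 10 leading genes of a10, and Atf3, among those of a15, belong to the tissue handling genes. The part of handling in these Mcl1 levels was not tested.

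Bcl2l1 (chromosome 2, 152780668 to 152831728, minus strand), which encodes BCL-XL, was highest among the compared classes in microglia-like cells, at 60.27 and 55.25 CPM, and in regulatory T-like cells, at 42.84 and 57.97 CPM. Among these classes B-like cells were lowest in the control library and naive T-like cells, with 6 and 5 UMIs, in the metformin library. It was called higher with metformin in regulatory T-like cells (1.35, interval 1.03 to 1.79, 91 and 135 UMIs) and in B-like cells (3.18, 1.48 to 6.97). The B-like value rests on 14 and 17 UMIs, of which 14.3% and 23.5% came from 1 cell, beside T marker values in that class that are given with Bcl2a1b below. It was 10.7 under the stricter cell filter, where too few UMIs were left for a call, and 1.44 with every cell weighted alike, and a minimum of 50 UMIs left it uncalled. The regulatory T-like value lost its call (1.31, 0.994 to 1.73) under separate clustering of the libraries.

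Regulatory T-like cells thus had lower Bcl2 and higher Bcl2l1 in the metformin library. Of the UMIs of the 4 anti-apoptotic genes there, Bcl2 made up 11.4% in control and 8.84% in metformin, and Bcl2l1 6.17% (interval 4.99 to 7.52) and 9.18% (7.76 to 10.8). Mcl1 took 44.9% and 47.7% and Bcl2a1b 37.5% and 34.3%. In this class the 6 NK markers summed to 40.95 and 17.61 CPM (0 of 6 higher, none at 0) and the 7 macrophage markers to 65.9 and 101.3 CPM (5 of 7 higher, 2 and 1 at 0), and their part was not tested.

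**Figure D3:**
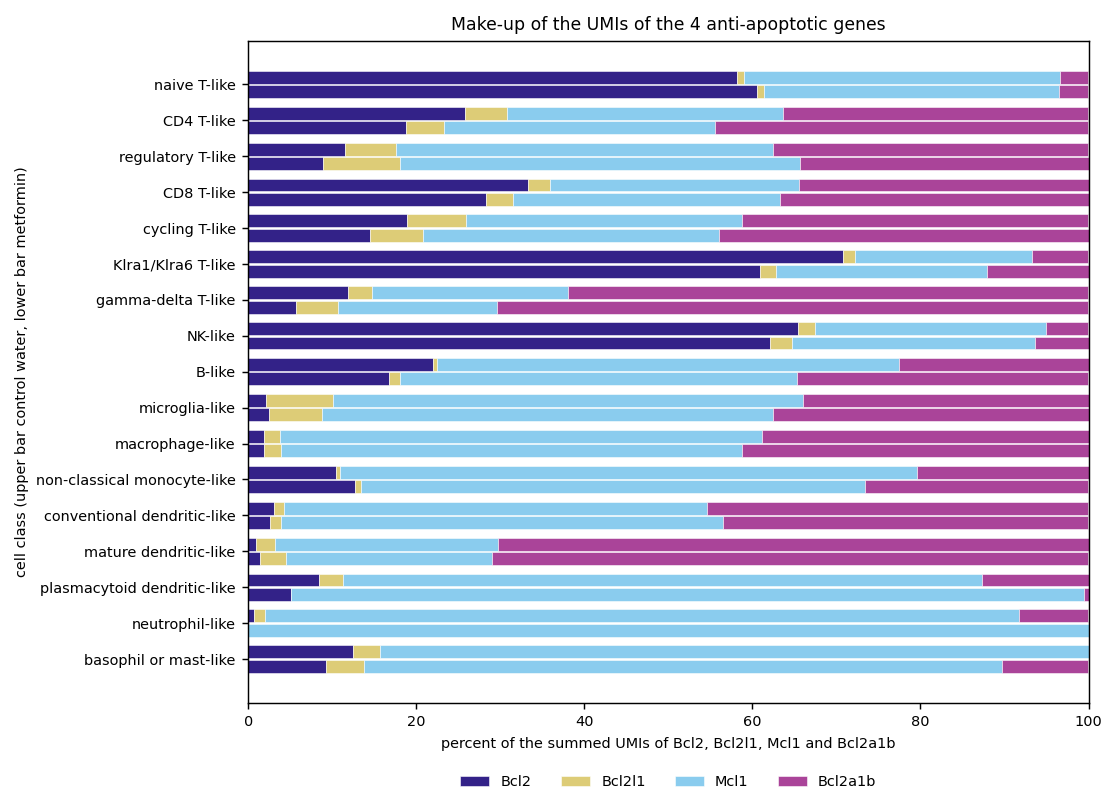
Percent of the summed UMIs of Bcl2, Bcl2l1, Mcl1 and Bcl2a1b (x axis) contributed by each gene in 17 cell classes (y axis), with control water as the upper and metformin as the lower bar of each pair. Bcl2 takes over 55 percent in Klra1/Klra6 T-like, NK-like and naive T-like cells, and Mcl1 with Bcl2a1b takes nearly all in macrophage-like and dendritic classes.

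The make-up of the anti-apoptotic UMIs differed between classes but did not follow lineage throughout. Bcl2 took 10.4% and 12.7% in the myeloid non-classical monocyte-like cells, close to the 11.4% and 8.84% in regulatory T-like cells. Bcl2 took 70.8% (interval 68.9 to 72.7) and 60.9% (58.8 to 63.0) in Klra1/Klra6 T-like cells, 65.4% and 62.1% in NK-like cells and 58.1% and 60.5% in naive T-like cells, but 1.84% and 1.82% in macrophage-like cells. Mcl1 took 89.7% in the control neutrophil-like cells. Bcl2a1b took 70.3% and 71.0% in mature dendritic-like cells and 62.0% and 70.4% in gamma-delta T-like cells. These shares compare UMIs and not proteins, and a gene's share also depends on how well its 3′ end is captured.

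Bcl2a1b (chromosome 9, 89199209 to 89207827, plus strand) belongs to a group of mouse A1 copies with Bcl2a1a (chromosome 9, 88956900 to 88962419, plus strand) and Bcl2a1d (chromosome 9, 88723285 to 88731914, minus strand). Its GENCODE transcript was 98.2% identical to that of Bcl2a1a and 99.1% to that of Bcl2a1d, and 36.1% of its 90-base stretches occur unchanged in another copy. The last 120 coding bases, stop codon included, are shown 5′ to 3′ because they show how few letters separate the copies within a read's length, with the differing positions in capitals.
Bcl2a1b: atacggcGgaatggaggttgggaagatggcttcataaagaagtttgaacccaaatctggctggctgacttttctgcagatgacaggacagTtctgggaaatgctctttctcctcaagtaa
Bcl2a1a: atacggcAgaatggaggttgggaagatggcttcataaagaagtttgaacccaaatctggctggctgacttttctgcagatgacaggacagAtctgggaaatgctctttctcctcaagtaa
Bcl2a1d: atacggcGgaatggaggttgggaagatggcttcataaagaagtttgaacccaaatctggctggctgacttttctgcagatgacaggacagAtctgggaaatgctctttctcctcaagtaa
Counted from 1 at the 5′ end of this stretch, Bcl2a1a differs from Bcl2a1b by G8A and T91A, and Bcl2a1d by T91A. Reads that lie wholly in shared stretches could be dropped or split by the authors' counting, and another annotated gene, Gm29094, overlaps Bcl2a1b on the same strand, so the level of each copy is uncertain.

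The copies are alike upstream as well. The following 100 bases end 87 bases before the annotated start of Bcl2a1b and Bcl2a1a and 37 bases before that of Bcl2a1d, and are shown because near-identical upstream sequence accompanies different expression below (RefSeq, GRCm38.p6, the position that differs in capitals).
Bcl2a1b, chr9:89199023-89199122, plus strand: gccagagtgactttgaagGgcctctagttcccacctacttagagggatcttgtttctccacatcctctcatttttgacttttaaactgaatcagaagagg
Bcl2a1a, chr9:88956714-88956813, plus strand: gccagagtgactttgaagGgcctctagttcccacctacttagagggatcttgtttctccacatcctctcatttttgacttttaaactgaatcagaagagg
Bcl2a1d, chr9:88731951-88732050, minus strand: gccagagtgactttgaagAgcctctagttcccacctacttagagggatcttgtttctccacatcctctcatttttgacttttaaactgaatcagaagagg
Bcl2a1b and Bcl2a1a were identical over this stretch, and Bcl2a1d differed by G19A. All 3 hold a match to the pattern TGANTCA, where N is any base and here A. Of all 32851 RefSeq promoters of 300 bases, 7.81% hold a match to this pattern on either strand. A match is a description and not a site.

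Bcl2a1b was highest in mature dendritic-like cells, at 1502 and 1515 CPM on 508 and 958 UMIs. Gamma-delta T-like cells followed with 775.9 and 818.0 CPM, then macrophage-like cells with 624.3 and 683.9 CPM and conventional dendritic-like cells with 509.4 and 483.4 CPM. CD4 T-like (278.0 and 329.0 CPM), CD8 T-like (274.4 and 257.4) and regulatory T-like cells (260.8 and 216.4) lay between, NK-like cells had 45.22 and 52.62 CPM, and naive T-like cells had 20.3 CPM in both libraries on 22 and 20 UMIs. Thus naive T-like and NK-like cells, which were rich in Bcl2, were poor in Bcl2a1b. At 3584 UMIs a cell, 7.91% and 7.87% of naive T-like cells and 80.7% and 65.9% of gamma-delta T-like cells had a Bcl2a1b UMI, with 8 and 5, and 2 and 2, cells left out (unthinned 11.6% and 12.9%, and 83.1% and 82.6%, with median depths of 7140 and 7246, and 6594 and 6855.5 UMIs).

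**Figure D4:**
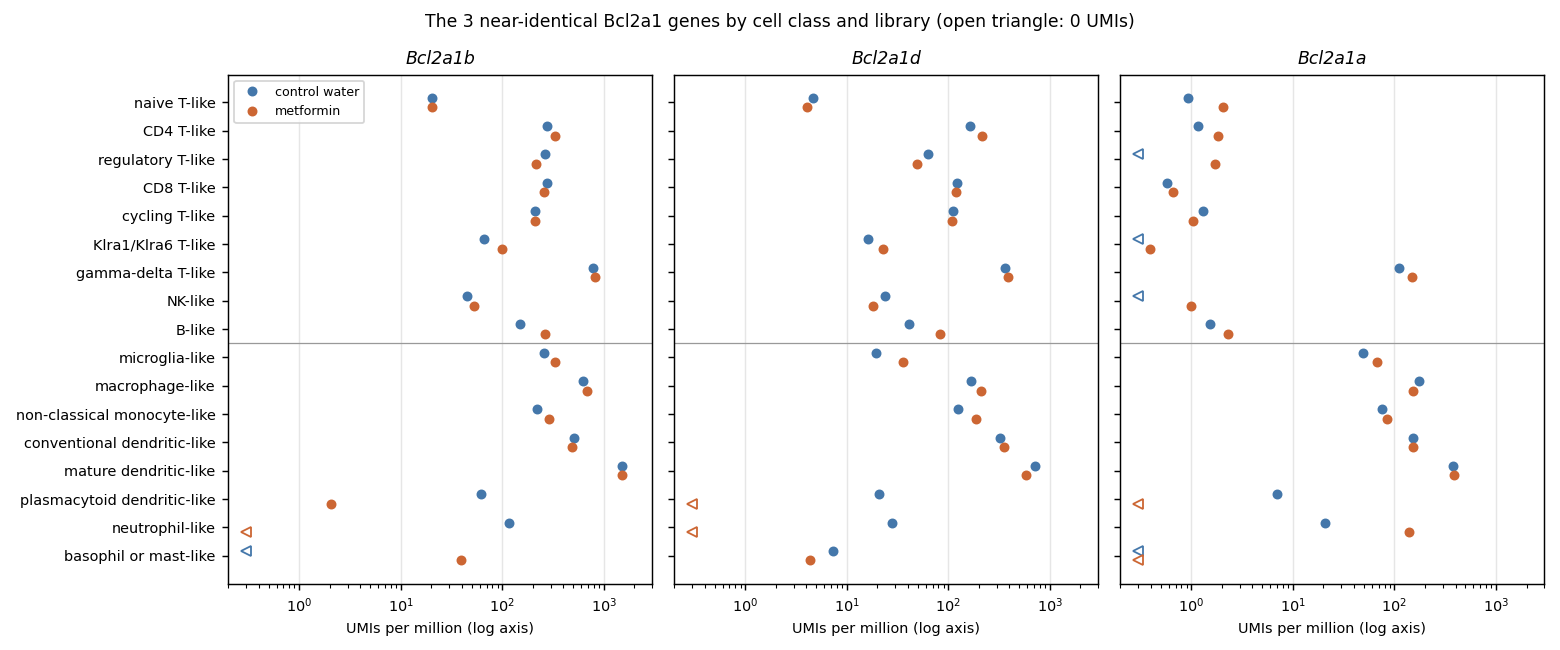
Level (x axis, CPM, log axis) of Bcl2a1b, Bcl2a1d and Bcl2a1a in 17 cell classes (y axis) for control water and metformin, with open triangles for 0 UMIs. Bcl2a1a lies far to the left in the lymphoid classes, apart from gamma-delta T-like cells at 110.8 and 150.5 CPM.

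The copies did not share 1 pattern. Bcl2a1d was the gene most like Bcl2a1b over 17 classes in 2 libraries (Pearson r = 0.919 of log2 CPM over 34 points, which share libraries and, with each class, cells). It did not track Bcl2a1b in microglia-like cells. Bcl2a1d had 19.35 and 35.66 CPM there and 161.8 and 212.8 CPM in CD4 T-like cells. Bcl2a1b was alike in these 2 classes, at 259.4 and 330.4 against 278.0 and 329.0 CPM. Bcl2a1a was myeloid, at 173.7 and 153.6 CPM in macrophage-like cells and 378.6 and 387.4 CPM in mature dendritic-like cells. In CD8 T-like cells it had 3 and 4 UMIs while Bcl2a1b had 1419 and 1554. Gamma-delta T-like cells were the lymphoid exception, with 44 and 46 Bcl2a1a UMIs in 13 of 59 and 16 of 46 cells (22.0%, exact interval 12.3 to 34.7, and 34.8%, 21.4 to 50.3), against 0.516% and 0.701% of CD8 T-like cells, whose median depth was greater. Bcl2a1a made up 8.89% and 11.1% of the UMIs of the 3 copies in gamma-delta T-like cells and 18.0% and 14.7% in macrophage-like cells. The 7 macrophage markers summed to 68.01 and 108.0 CPM in gamma-delta T-like cells (5 and 2 of the 7 at 0), and all 6 conventional dendritic markers were at 0 in both libraries.

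Between the libraries, Bcl2a1b was called higher with metformin in 3 of 11 classes and lower in none. In B-like cells it stood at 150.8 and 261.8 CPM (1.74, interval 1.54 to 1.96, 688 and 456 UMIs), where 8.05% of genes were called. In Klra1/Klra6 T-like cells, where the handling genes and the mix of clusters given above also differed, it stood at 65.52 and 100.3 CPM (1.53, 1.246 to 1.89). In microglia-like cells it stood at 259.4 and 330.4 CPM (1.27, 1.21 to 1.35). CD4 T-like cells had 1.18 (1.09 to 1.28) and macrophage-like cells 1.10 (1.05 to 1.15), both short of the fold, while regulatory T-like cells had 0.830 (0.734 to 0.938). With all 3 copies summed, which does not depend on how shared reads were assigned among them, the ratio was 1.79 in B-like, 1.51 in Klra1/Klra6 T-like, 1.32 in microglia-like and 1.23 in CD4 T-like cells.

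These Bcl2a1b values stood beside other differences. In the B-like class the 6 T markers summed to 70.8 and 121.7 CPM (6 of 6 higher, none at 0) and the 5 regulatory T markers to 24.77 and 79.22 CPM (5 of 5 higher), and 1 metformin cell held 9.87% of the Bcl2a1b UMIs. In microglia-like cells, whose summed markers are given with Bcl2, 5 of the 7 macrophage markers and 0 of the 7 microglia markers were higher with metformin, and none was at 0. Their part in the result was not tested. Within microglia-like cells the ratio was 1.44 in the C4b-led a6 (285.6 and 410.0 CPM), 1.14 in a0 and 0.927 in a10. With every cell weighted alike the microglia-like ratio was 1.15, under the fold, and in Klra1/Klra6 T-like cells the stricter cell filter gave 1.28 (0.969 to 1.69).

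Bax (chromosome 7, 45461697 to 45466898, minus strand), the cytosolic pore-former, had the narrowest spread across classes. The 11 compared classes ran from 69.21 CPM in control naive T-like cells to 190.7 CPM in metformin macrophage-like cells. It was called in 1 class, conventional dendritic-like cells, at 138.7 and 180.1 CPM (1.30, interval 1.10 to 1.54, 204 and 444 UMIs), where 13.1% of genes were called. That call ended under the stricter cell filter (1.22) and at lower clustering resolution (1.10, with 20 and 63 cells). In this class the 7 macrophage markers summed to 300.6 and 105.0 CPM (3 of 7 higher, 1 at 0 in each library) and the 7 microglia markers to 393.8 and 189.0 CPM (1 of 7 higher, none at 0), and their part was not tested. An annotated gene on the same strand, Gm45808, overlaps Bax.

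Bak1 (chromosome 17, 27019810 to 27029009, minus strand), which encodes the pore-former resident at the mitochondrion, was called between libraries in none of the 11 classes. Conventional dendritic-like cells had 82.97 and 88.0 CPM, macrophage-like cells 84.84 and 70.06 CPM (0.826, interval 0.719 to 0.948) and cycling T-like cells 71.88 and 72.57 CPM. Microglia-like cells had 26.13 and 26.04 CPM (0.997, 0.828 to 1.20), so Bak1 separated the myeloid classes, with microglia-like cells well under macrophage-like and conventional dendritic-like cells in both libraries. Regulatory T-like cells, at 63.08 and 63.56 CPM, were above naive T-like cells, at 16.61 and 27.43 CPM.

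Bcl2l11 (chromosome 2, 128126038 to 128162547, plus strand), which encodes BIM, the BH3-only protein that removes lymphocytes deprived of cytokine, was highest, among the 11 compared classes, in the same 2 classes as Bcl2. NK-like cells had 223.8 and 217.0 CPM and Klra1/Klra6 T-like cells 161.6 and 134.8 CPM, against 57.43 and 59.14 CPM in CD8 T-like and 25.42 and 34.78 CPM in regulatory T-like cells. At 3584 UMIs a cell, 47.8% of 395 and 48.7% of 520 NK-like cells had a Bcl2l11 UMI, with 36 and 59 shallower cells left out (unthinned 59.9% and 64.6%, median depth 6483 and 6369 UMIs). In microglia-like cells the shares were 13.9% and 13.6% (unthinned 25.0% and 26.2%). Naive T-like cells, rich in Bcl2, had 46.14 and 46.73 CPM, so the pairing did not extend to them.

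No Bcl2l11 call was made between libraries in the 11 classes, with ratios from 0.789 to 1.37, but clusters within a class went opposite ways. In CD4 T-like cells cluster l8 had 97 and 20 UMIs (0.395, interval 0.231 to 0.644) while l4 had 51 and 59 (1.60, 1.08 to 2.37). NK-like cluster l1 had 337.3 and 252.1 CPM (0.747, 0.657 to 0.851). In 2 of the small dendritic classes Bcl2l11 was lower with metformin: mature dendritic-like cells had 195.2 and 66.41 CPM (0.340, 0.225 to 0.509, 66 and 42 UMIs) and plasmacytoid dendritic-like cells 211.1 and 92.42 CPM (0.438, 0.291 to 0.654, 61 and 45 UMIs). One cell held at most 29.5% of the UMIs in these 4 sums. At 3584 UMIs a cell, 39.5% of 38 control and 18.3% of 60 metformin mature dendritic-like cells had a Bcl2l11 UMI, with 5 and 10 left out (unthinned 48.8% and 34.3%, median depth 6647 and 8674.5 UMIs).

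Bid (chromosome 6, 120891930 to 120916853, minus strand), the BH3-only protein cleaved by caspase 8, was sparse, with 993 control and 856 metformin UMIs over all cells. Among the compared classes it was highest in microglia-like cells (36.77 and 32.25 CPM) and NK-like cells (31.0 and 29.57 CPM). It was called in regulatory T-like cells alone of the 10 classes with enough UMIs, at 14.59 and 26.2 CPM (1.80, interval 1.15 to 2.86) on 31 and 61 UMIs, and that call ended at 1.53 (0.977 to 2.43) under separate clustering of the libraries. Bcl2l13 overlaps Bid on the opposite strand.

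Pmaip1 (chromosome 18, 66458533 to 66465565, plus strand), a p53 target, was highest in mature dendritic-like and conventional dendritic-like cells in both libraries. Mature dendritic-like cells had 224.8 and 196.1 CPM, conventional dendritic-like cells 142.8 and 148.4 CPM, non-classical monocyte-like cells 77.31 and 113.1 CPM and plasmacytoid dendritic-like cells 121.1 and 63.67 CPM. The classes richest in Bcl2 had almost none: 4.845 and 5.513 CPM in NK-like cells on 15 and 22 UMIs, and 6.116 and 5.549 CPM in Klra1/Klra6 T-like cells on 14 each. At 3584 UMIs a cell, 1.77% and 1.92% of NK-like cells had a Pmaip1 UMI, against 29.3% and 33.6% of conventional dendritic-like cells, with 8 and 5 of the latter left out (unthinned 3.25% and 3.11%, and 55.0% and 69.7%). Conventional dendritic-like cells were the deeper class, at median depths of 13317.5 and 15933 UMIs. NK-like and Klra1/Klra6 T-like cells thus carried high BIM and low NOXA transcript, and dendritic-like cells the reverse for NOXA.

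With metformin Pmaip1 was called higher in CD4 T-like cells, at 13.67 and 25.38 CPM (1.86, interval 1.34 to 2.59, 70 and 83 UMIs), and in microglia-like cells, at 38.19 and 52.94 CPM (1.39, 1.21 to 1.60), beside the macrophage and microglia markers given for that class. It was called lower in CD8 T-like cells, at 27.26 and 21.04 CPM (0.772, 0.602 to 0.988), but that call stood in only 2 of 9 alternatives. All 3 CD4 T-like clusters had ratios above 1 (1.45 in l4, 2.18 in l5 and 2.0 in l8, the first with an interval of 0.770 to 2.72). CD4 T-like cells of the metformin library therefore had less Bcl2 and more Pmaip1 UMIs, beside the microglia and macrophage marker values given above for that class.

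Bbc3 (chromosome 7, 16308393 to 16318205, plus strand), which encodes PUMA, another p53 target, was called in none of the 10 classes with enough UMIs. Microglia-like cells had 32.82 and 29.7 CPM (0.905, interval 0.763 to 1.07) and NK-like cells 19.38 and 22.3 CPM. With 828 and 805 UMIs over all cells, differences of the size called for Bcl2 were not detectable in the smaller classes: in naive T-like cells the interval ran from 0.801 to 3.21.

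Over the whole family, 16 of the 106 member and class pairs with enough UMIs were called, 10 higher and 6 lower with metformin. The members called were 2 each in B-like, CD4 T-like, CD8 T-like and Klra1/Klra6 T-like cells, 3 each in microglia-like and regulatory T-like cells, 1 each in conventional dendritic-like and cycling T-like cells, and none in macrophage-like, NK-like and naive T-like cells. In NK-like cells 6.63% of all genes were called and in naive T-like cells 5.73%. Over the 11 classes the called share of all genes ran from 5.73% in naive T-like to 13.1% in conventional dendritic-like cells. With 10 members, about 1 call a class is thus the level of genes in general. The 16 of 106 pairs are a larger share than that of all genes in any of the 11 classes. Neither this difference nor the counts of 3 in microglia-like and regulatory T-like cells was tested. The median log2 ratio of all genes tested lay between -0.05 and 0.02 in the 11 classes.

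**Figure D5:**
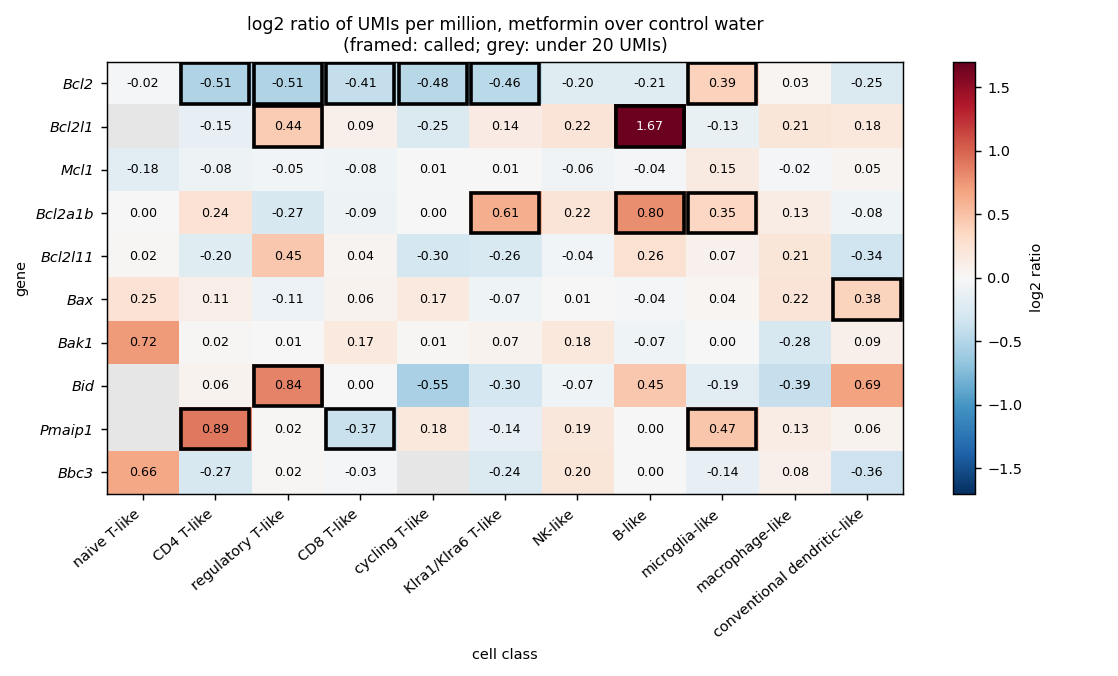
Log2 ratio of CPM, metformin over control water, for 10 genes (y axis) in the 11 compared classes (x axis), with called pairs framed and pairs under 20 UMIs grey. The framed Bcl2 cells are negative in 5 T cell classes and positive in microglia-like cells, and the Mcl1 row stays near 0.

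The other genes of the pathway were called in both directions. The 8 lists held 65 names for 64 genes, all measured, as Mule is another name of Huwe1. Of 556 gene and class pairs with enough UMIs, 62 were called, 29 higher and 33 lower with metformin. That is 11.2% of the pairs pooled over classes, beside 5.73% to 13.1% of all genes called in single classes. A pooled share of all genes was not computed, so the 2 measures are not alike. The lists differed, from 6.7% of pairs for apoptosome and caspase genes to 19.1% for survival cytokine receptors and 21.1% for anti-apoptotic relatives. The last 2 shares lie above that range, and the difference was not tested. The p53 and stress inducers gave 5 higher and 5 lower of 76 pairs. Cdkn1a, a p53 target that arrests the cell cycle, accounted for 6 of them: it was higher in microglia-like cells (64.01 and 95.17 CPM, 1.49), NK-like cells (1.80), Klra1/Klra6 T-like cells (1.89) and B-like cells (2.03), and lower in CD4 T-like cells (0.671) and conventional dendritic-like cells (0.740). Ddit3, the stress gene encoding CHOP, was higher in cycling T-like cells (1.75) and lower in CD8 T-like (0.783) and conventional dendritic-like cells (0.737). Foxo1, a transcription factor that can drive Bcl2l11, was lower in conventional dendritic-like cells (0.578). In CD4 T-like cells Pmaip1 was higher while Cdkn1a was lower, so these p53 targets did not go the same way there.

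Survival cytokine receptors gave 9 higher and 13 lower of 115 pairs. Il7r, the receptor chain for IL-7, was lower in NK-like cells (60.72 and 35.83 CPM, 0.590, interval 0.471 to 0.737), conventional dendritic-like cells (0.717) and macrophage-like cells (0.756). In the T cell classes with lower Bcl2 it was not called, at 0.888 (0.823 to 0.957) in CD4 T-like, 1.15 (1.06 to 1.249) in CD8 T-like and 1.17 (1.06 to 1.30) in Klra1/Klra6 T-like cells. Il2ra, the high-affinity chain of the IL-2 receptor, was higher in CD8 T-like (36.93 and 65.77 CPM, 1.78) and B-like cells (2.77) and lower in CD4 T-like (0.793), Klra1/Klra6 T-like (0.514) and macrophage-like cells (0.457). Cd27, a costimulatory receptor of the TNF receptor family, was higher in NK-like (1.41), conventional dendritic-like (1.65) and microglia-like cells (1.27). Csf2rb, the shared chain of the GM-CSF receptor, was lower in macrophage-like cells (0.799) and higher in B-like (2.02) and CD8 T-like cells (3.08, on 5 and 18 UMIs).

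The remaining lists held fewer calls than the survival cytokine receptors. Apoptosome and caspase genes gave 3 higher and 7 lower of 150 pairs, and Birc2, an inhibitor of apoptosis protein, was lower in B-like (0.790), cycling T-like (0.683) and regulatory T-like cells (0.773). Aifm1 was higher in CD8 T-like (1.44) and lower in naive T-like cells (0.413), Birc3 was higher in CD8 T-like cells (1.33) and Diablo, which encodes the IAP antagonist SMAC, was lower in NK-like cells (0.720). Mitochondrial partners gave 3 higher and 3 lower of 77 pairs, with Vdac1 higher in B-like (1.35) and conventional dendritic-like cells (1.36) and lower in cycling T-like cells (0.767). Opa1, which shapes mitochondrial cristae, was higher in CD8 T-like (1.38) and lower in regulatory T-like cells (0.624), and Vdac3 was lower in Klra1/Klra6 T-like cells (0.782).

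Anti-apoptotic relatives gave 4 higher and none lower of 19 pairs, all of them A1 copies: Bcl2a1d in B-like (2.01), CD4 T-like (1.32) and microglia-like cells (1.84) and Bcl2a1a in microglia-like cells (1.35). BH3-only relatives gave 2 higher and 2 lower of 52 pairs, with Bnip3 higher in CD8 T-like (2.13) and lower in macrophage-like cells (0.767), Bad higher in conventional dendritic-like cells (1.51) and Bcl2l15 lower in CD4 T-like cells (0.341). The list of Bok, Bcl2l13 and Bcl2l14, set beside the pore-formers, gave 1 call of 12, Bcl2l14 in conventional dendritic-like cells (1.57). Whether Bcl2l14 forms pores is not shown here, and it was among the 10 leading genes of the mature dendritic-like cluster. Genes for the turnover of MCL1 and BIM gave 2 higher and 3 lower of 55 pairs, with Huwe1, a ubiquitin ligase of MCL1, higher (1.31) and Usp9x, which removes ubiquitin from MCL1, lower (0.739) in conventional dendritic-like cells, where Mcl1 itself had 1.03 (0.947 to 1.13). Ube2q1 was higher in NK-like (1.27) and lower in conventional dendritic-like cells (0.768), and Fbxw7, a ubiquitin ligase subunit that targets MCL1, was lower in cycling T-like cells (0.637).

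Across classes, the genes whose levels most resembled a member's were named from 6485 candidates by the Pearson correlation of log2(CPM + 10) over 34 points from 17 classes in 2 libraries. For Mcl1 they were Tnfaip2 (0.948), Csf2ra (0.928) and Hlx (0.926), and for Bcl2 they were Rps16 (0.856), Plcxd2 (0.852) and Gm2682 (0.852). For Pmaip1 they were Ube2f (0.862), Erlin1 (0.862) and Grb2 (0.846). Bax and Bak1 had the same first gene, Hspa8, at 0.901 each, with Prdx2 (0.894) and Snx3 (0.892) next for Bax and Snx3 (0.888) and Tap1 (0.879) for Bak1. Bcl2l1 had Nrip1 (0.827), Tbc1d10a (0.819) and Map4 (0.778), and Bcl2a1b had, after Bcl2a1d, Map4 (0.823) and Got1 (0.809). Bid had Gsdme (0.805), Tnfrsf23 (0.783) and Cln3 (0.779), and Bbc3 had Zfp277 (0.851), Usp8 (0.767) and Ids (0.743). Bcl2l11 had 1700025G04Rik (0.709), Parp8 (0.653) and Agtrap (0.641), the weakest leading likeness of the 10. These are descriptions over points that share libraries and depth.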

How the data were processed

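Per the labels' protocols, cells were captured with the 10x 3′ v3 kit. The submitters' processing notes name Cell Ranger, Seurat and mm10. The authors deposited raw counts of UMIs for each gene in each barcode. The counting annotation was not given in the sources used here (99.6% of gene identifiers matched GENCODE M21, whose positions are printed).

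Barcodes with under 300 genes (92 control, 151 metformin) or over 10% mitochondrial UMIs (727, 856) and doublets called by Scrublet (62, 37; 1.14% and 0.803%) were removed. Cells were clustered with scanpy 1.11.5 (2000 variable genes without the members, 30 components, 15 neighbours, Leiden resolution 1.0, and 1.5 for lymphocytes) and named from marker lists. Counts were summed per class and library and scaled to CPM. Intervals were exact Poisson, exact binomial (Clopper-Pearson) and exact conditional for ratios, without adjustment for multiple comparisons. Median retained depth was 7295 and 7926 UMIs a cell. The code was tested on simulated data.

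Named genes were all 10 members, up to 4 genes of each pathway list called in the most classes, and the 3 genes most like each member, while the clusters described were chosen after their values were seen, as were the tissue handling genes. The members and lists were chosen with earlier results of these data known.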

Additional observations from a re-analysis of the deposited data

Results flagged for a closer look

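Members called in opposite directions in different classes, and members called higher with metformin in cells outside the named classes, are listed here. None of these differences between classes was tested, since each class has 1 library per group.

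Bcl2 was lower with metformin in CD4 T-like (ratio 0.70), regulatory T-like (0.702), cycling T-like (0.719), Klra1/Klra6 T-like (0.727) and CD8 T-like cells (0.752) and higher in microglia-like cells (1.31). Pmaip1 was higher in CD4 T-like (1.86) and microglia-like cells (1.39) and lower in CD8 T-like cells (0.772).

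Unnamed cluster l18, led by the granulocyte precursor genes Prtn3, Elane and Mpo with cycling genes, held 16 control and 25 metformin cells and entered no comparison. In it Bcl2a1b had 41 and 207 UMIs (ratio 5.53, interval 3.94 to 7.93), Bcl2l1 7 and 20 UMIs (3.13, 1.27 to 8.76) and Bcl2 15 and 27 UMIs (1.97, 1.01 to 3.99). Up to 46.7% of such a sum came from 1 cell. Median depth in this cluster was 26850 UMIs a cell in control and 13259 in metformin. The part of this difference between its cells in the ratios was not tested.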

How the results depend on the processing

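The count of called member and class pairs was 16 in the analysis as reported and 5 with a fold of 1.5, while the other alternatives gave 12 to 21. Clustering each library on its own and the stricter cell filter each gave 21, of which 11 were among the 16. Of the 16 pairs, 7 stood under all 9 alternatives to filter, doublets, clustering, scaling and weighting, and none changed direction. With every cell weighted alike no interval was made, so that alternative was judged by the fold alone. Of 10 members, 3 were called between lymphoid and myeloid cells, 6 with a fold of 1.5, and 2 to 4 under the others. Of other pathway genes, 62 pairs were called, 27 with a fold of 1.5, and 59 without the richest cell. The class with the highest level was the same for all 10 members with every cell weighted alike and with thinned cells, but both the highest and the lowest class were the same for 8 of 10: the lowest changed for Bak1 under both, for Bbc3 with cells weighted alike and for Bcl2l11 with thinned cells. Of 144 single ratios recomputed, 134 moved by less than their interval. No paired analysis was possible because each group has 1 library. Depth limits Bid, Bbc3 and Bcl2l1 in the smaller classes. Animals, sorts and library preparation cannot be told apart from treatment.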

Other observations

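Within the 4 anti-apoptotic genes, 2 small classes had their own make-up. Control plasmacytoid dendritic-like cells had 18 Bcl2a1b UMIs, of which 72.2% came from 1 cell, and the metformin cells had 1, while Mcl1 took 76.1% and 94.3% of the 4 genes' UMIs there. In basophil or mast-like cells Mcl1 took 84.4% and 75.9%, on 96 and 87 UMIs of the 4 genes.

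Over all retained cells, whatever their class, Bcl2 stood at 168.5 and 146.2 CPM (ratio 0.868, interval 0.839 to 0.897) and Bcl2a1b at 280.1 and 336.5 CPM (1.201, 1.17 to 1.23). These sums also hold the different numbers of cells per class in the libraries, such as 659 and 251 B-like cells. Among the myeloid cells together, Bid was at 28.81 and 22.98 CPM (0.798, 0.70 to 0.908), although no single myeloid class was called for it.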
